A study of Mus musculus with 35 samples.

Results

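The genes described here encode lysosomal hydrolases, lysosomal membrane proteins and the MiT/TFE transcription factors, and were measured by mRNA sequencing of CD45+ cells immunopanned from whole mouse brain. The members were taken by gene symbol, from a list of lysosomal genes drawn up with earlier results of these data known, and 43 symbols were matched to 43 of the 55401 Ensembl gene identifiers in the count table. All 43 passed the filter on low counts that left 17612 genes for testing. They comprised 12 glycosidases, 5 sulfatases, 6 lipid enzymes or activators, 6 peptidases, thioesterases, phosphatases or nucleases, 11 membrane proteins or luminal cofactors, and 3 regulators. The mice were untreated wild-type C57BL/6 of both sexes, killed at postnatal day 6 (P6), day 15 (P15) or 8 weeks, and each library came from 1 mouse. The comparisons used 34 mice, which were 4 females and 6 males at P6, 6 of each sex at P15 and 6 of each sex at 8 weeks. A P6 female labelled replicate 6 was left out of the comparisons, and its values are given where it matters. The question was how this gene set differed between the ages, since the study followed microglial gene regulation through the developing and adult brain.

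Lysosomes degrade material delivered by phagocytosis, endocytosis and autophagy. Their soluble hydrolases each cut a particular bond in glycans, sulfated glycosaminoglycans, lipids, proteins or nucleic acids, and their membrane proteins line the organelle, move degradation products out and carry ions. The transcription factors TFEB, TFE3 and MITF bind short E-box elements in the promoters of many lysosomal genes. Microglia are the resident phagocytes of the brain, and inherited loss of many of these enzymes causes storage disease with damage to the nervous system.

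The E-box CACGTG was looked for in RefSeq promoters (GRCm38.p6), each of which spans 250 bases before to 50 bases after a transcription start. Of the 43 members, 41 had a promoter entry. The letters CACGTG, which read the same on both strands, were present in 10 of these 41 members (24.4%), against 8.09% of 27025 genes in the same table. The longer TCACGTGA, which is also the same on both strands and contains CACGTG, was present in 3 members (7.32%), against 1.12% of all genes. The sequences shown are the 4 matches to the longer element and 1 match each from the promoters of Sgsh, Lgmn and Lamp1. Sgsh was the member with the largest rise, Lgmn had the highest level per length, and Lamp1 was lower at 8 weeks. Each sequence is 30 bases, 5′ to 3′ on the gene's strand, with the matched element in capitals.
Cln3 (chr7:126583340-126583369, minus strand): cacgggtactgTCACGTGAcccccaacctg
Gla (chrX:134601182-134601211, minus strand): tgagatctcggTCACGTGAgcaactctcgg
Gla (chrX:134601215-134601244, minus strand): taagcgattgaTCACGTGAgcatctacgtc
Mcoln1 (chr8:3500462-3500491, plus strand): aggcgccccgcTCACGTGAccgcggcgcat
Sgsh (chr11:119355522-119355551, minus strand): gggcctgccgtgCACGTGaccgtggggagc
Lgmn (chr12:102439124-102439153, minus strand): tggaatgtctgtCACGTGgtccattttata
Lamp1 (chr8:13159088-13159117, plus strand): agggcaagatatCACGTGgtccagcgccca
The shorter element began 121 bases before the RefSeq start of Cln3, 194 and 227 bases before that of Gla, 45 bases before that of Mcoln1, 29 before that of Sgsh, 49 before that of Lgmn and 61 before that of Lamp1. The Lamp1 promoter held 4 matches in all, of which the match farthest from the start is shown, and those of Cln3 and Mcoln1 held 2 each. Both Gla windows also lay within the span of Hnrnph2 in the GENCODE annotation, and the Cln3, Mcoln1, Sgsh and Lgmn windows lay within or across the ends of those genes' own annotated spans. Among the 10 members with the element, 8 were higher and 2 lower at 8 weeks than at P6, where 37.8% of all tested genes were higher and 36.6% lower. The median log2 fold change of these 10 members was 0.46. Among the 31 without the element, 20 were higher, 3 lower and 8 not called, and the median was also 0.46. A match describes these letters only and no binding was measured.

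Total counts assigned to genes ranged from 23316107 to 38965078 per mouse over the 35 libraries, and 3 counts corresponded to 0.077 to 0.129 CPM (counts scaled to library size). Acp5 came nearest to that floor among the members, with 0.947 CPM in its lowest mouse. Levels are CPM scaled by the trimmed mean of M-values (TMM), and levels of different genes are compared only as RPKM, the same value per kilobase of merged exons. All 6 microglial markers (Tmem119, P2ry12, Sall1, Siglech, Olfml3 and Fcrls) were detected in every mouse. Their mean log2 CPM was 9.16 ± 0.31 (SD, n = 10) at P6, 10.71 ± 0.31 (SD, n = 12) at P15 and 10.82 ± 0.14 (SD, n = 12) at 8 weeks. All 6 were higher at 8 weeks than at P6, as were 8 of 10 pan-microglial genes (Csf1r, Cx3cr1, the C1q subunits and others), whose median log2 fold change was 1.12. All 9 genes of the neural progenitor and immature neuron list, among them Dcx, Sox11 and Eomes, were lower, with a median of -4.86, and no mouse was at 0 for any of them. Their summed level ranged from 661 to 2037 CPM at P6, from 124 to 845 at P15 and from 89 to 206 at 8 weeks. Of 6 neuronal markers, 4 were lower and 1 higher at 8 weeks, of 7 oligodendrocyte-lineage markers 2 were lower and 5 higher, of 5 astrocyte markers 1 was lower and 3 higher, of 4 endothelial markers 2 were higher, and of 9 border-macrophage and monocyte markers 4 were lower and 2 higher. In bulk libraries fewer cells of a type and less RNA per cell cannot be told apart.

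Some libraries stood apart. The root mean square deviation from the other mice of the same age and sex, over all tested genes on the log2 scale, was 1.05 for P15 male 1, 0.912 for P15 male 6 and 0.863 for P6 female 6, and between 0.364 and 0.789 for the other 32 mice. P15 male 1 had the highest mean log2 CPM of oligodendrocyte-lineage markers at its age (8.02). P6 female 6, the library left out, had a microglial marker mean of 7.73 log2 CPM and a neuronal one of 7.53, outside the ranges of the other P6 mice (8.85 to 9.69 and 4.77 to 6.31), and its members lay at a median of -0.79 from the other P6 females. The members' counts below are therefore also given without P15 male 1 and without P15 male 6.

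More members were higher than lower at the later ages. From P6 to P15, 28 of the 43 members rose (65.1%, against 30.4% of all tested genes) and 5 fell (11.6%, against 31.4% of all tested genes). From P6 to 8 weeks, 29 rose (67.4%, against 37.8% of all genes) and 6 fell (14.0%, against 36.6%). From P15 to 8 weeks, 9 rose (20.9%, against 24.0%), 6 fell (14.0%, against 23.9%) and 28 were not called. A call is a false discovery rate (FDR) under 0.05 in edgeR's quasi-likelihood test over all tested genes. The median log2 fold change of the members was 0.35, 0.46 and 0.09 in these 3 comparisons, beside -0.01, 0.04 and 0.02 for all tested genes. Scaled by library size alone they were 0.22, 0.31 and 0.08, beside -0.14, -0.10 and 0.00. The comparisons share mice, so they are not independent of each other. Without P15 male 1 the numbers that rose and fell were 31 and 5, 31 and 6, and 7 and 6 in the same order, and without P15 male 6 they were 28 and 6, 31 and 6, and 11 and 6. With all 35 mice they were 30 and 5, 32 and 6, and 9 and 5.

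These directions depended on what the counts were scaled to. When libraries were scaled to the 10 pan-microglial genes, the median of all genes moved to -0.79 from P6 to P15 and to -0.96 from P6 to 8 weeks, and the members split into 2 higher and 31 lower at P15, where 6.99% of all genes were higher and 68.2% lower, and 2 higher and 36 lower at 8 weeks, where 10.1% of all genes were higher and 70.4% lower. Such a rescaling moves all genes by about the same amount, so that it leaves the members' distance from the median of all genes (0.37 at P15 and 0.42 at 8 weeks under TMM) nearly as it was and is no test of it. With the mean log2 CPM of 15 neuron and neural progenitor markers as a covariate the median of all genes was 0.08 at 8 weeks and the members split into 5 higher and 19 lower, beside 25.5% and 23.7% of all genes, with 10 of 43 above the median of all genes. That marker mean itself separated P6 (4.74 to 6.46 log2 CPM) from 8 weeks (1.85 to 3.45) without overlap, so that its effect and that of age cannot be told apart. From P6 to P15 (2.76 to 5.58), where the marker means overlapped, 15 members were higher and 12 lower with the covariate. All tested genes split into 4820 higher and 4604 lower. The members' median then lay 0.02 above that of all genes, with 22 of 43 above it. The part of neural RNA in the rise to P15 was not tested. The only members called higher at 8 weeks than at P6 under TMM and under pan-microglial scaling were Sgsh and Pla2g15. In the account that follows, "rose" and "fell" refer to TMM-scaled values, and the exceptions under pan-microglial scaling are named.

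**Figure D1:**
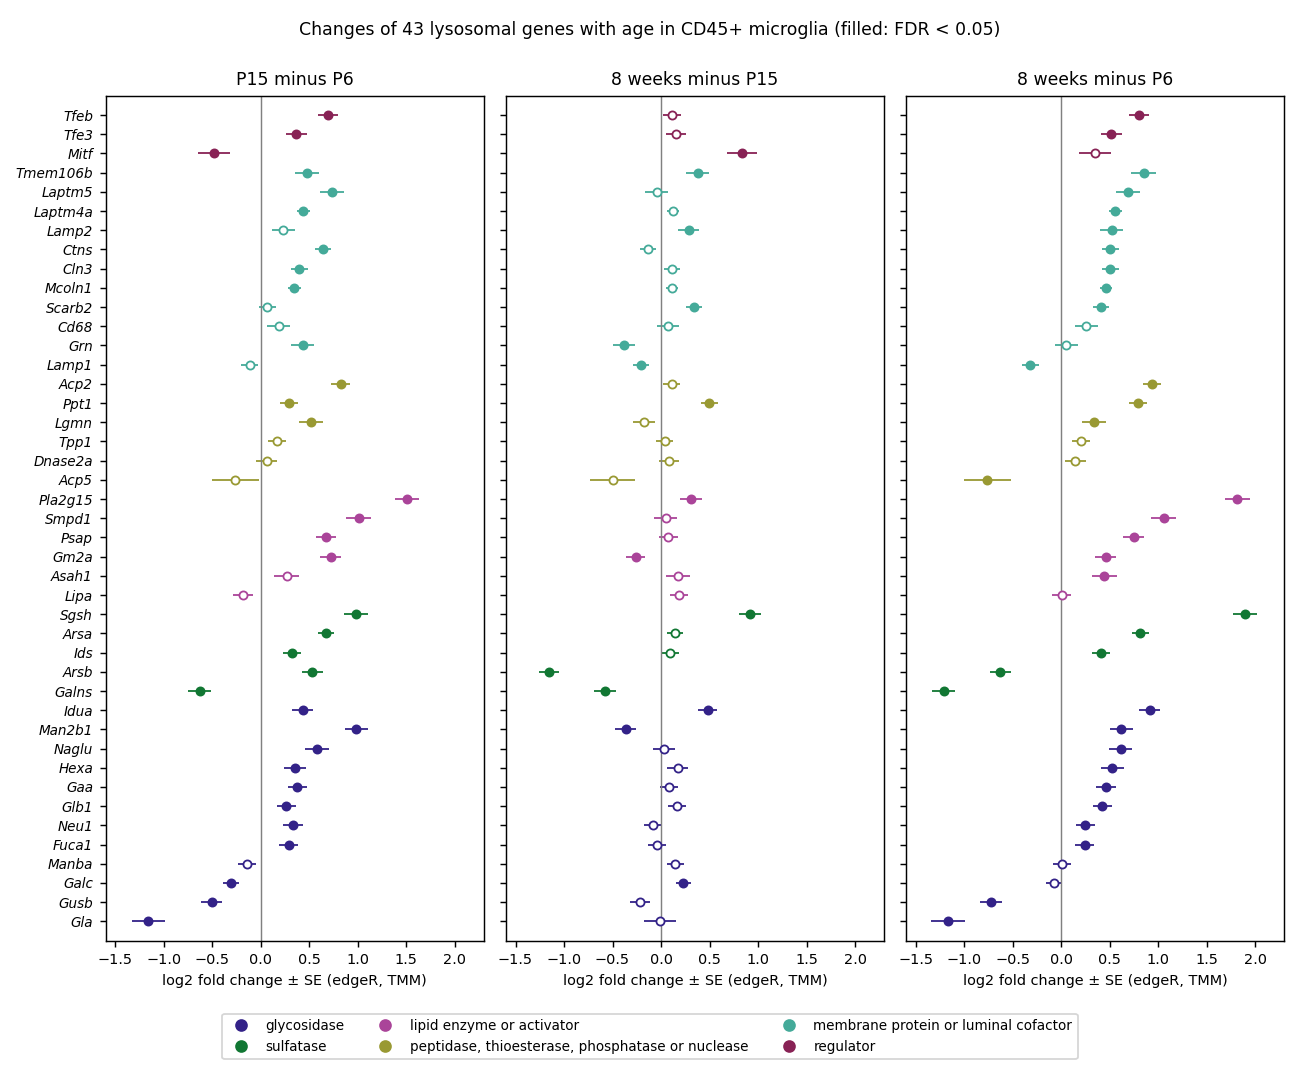
Log2 fold change ± SE of each of the 43 members (rows, coloured by role) from P6 to P15, from P15 to 8 weeks and from P6 to 8 weeks, TMM-scaled, with filled points at FDR < 0.05. From P6 to 8 weeks, 29 points lie filled to the right of 0 and 6 filled to the left, Sgsh and Pla2g15 lie farthest right, and scaling to pan-microglial genes moved all but Sgsh, Pla2g15 and Smpd1 to values below 0.

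**Figure D2:**
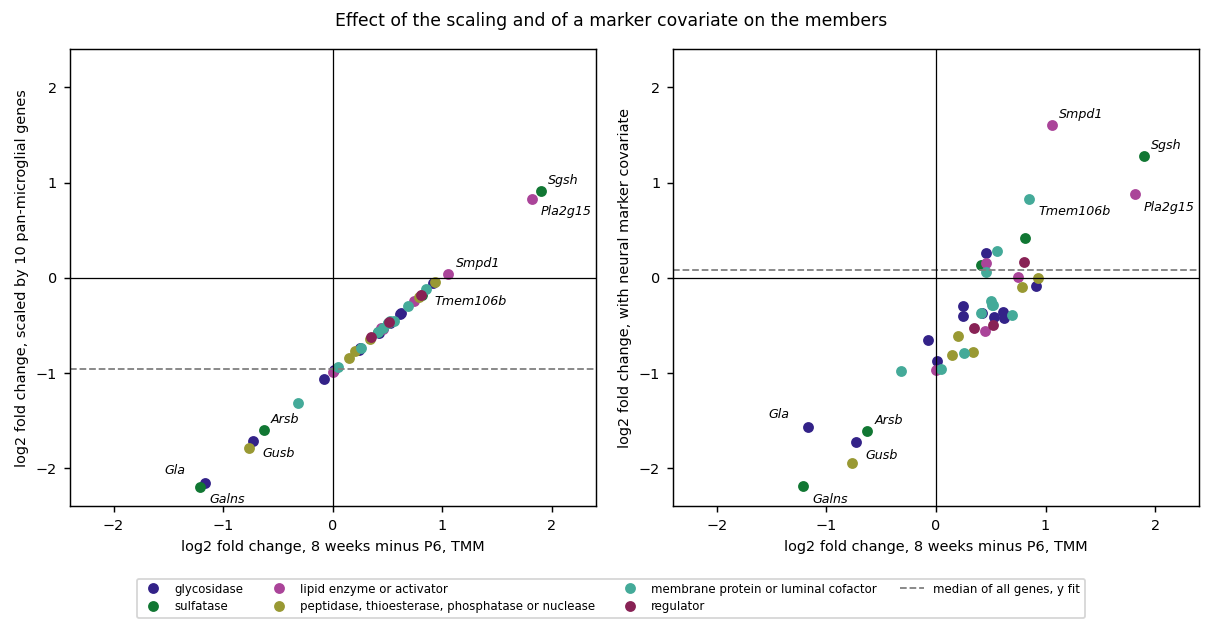
Log2 fold change of each member from P6 to 8 weeks under TMM (x axis) against the value under pan-microglial scaling (left panel) or with the neural marker covariate (right panel), with the median of all genes dashed. Under pan-microglial scaling the members shift down together, with 3 of 43 above 0, and with the covariate 13 of 43 lie above 0.

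Only 2 members passed the test of a change over 2-fold. The test was glmTreat with a 2-fold threshold, which called 11.5% of all genes higher and 12.4% lower from P6 to 8 weeks, 4.87% higher and 4.85% lower from P6 to P15, and 1.2% higher and 3.07% lower from P15 to 8 weeks. Sgsh, the sulfatase that removes the N-linked sulfate of heparan sulfate (chr11:119343425-119355536, minus strand, GRCm38), passed from P6 to 8 weeks, and Pla2g15, the lysosomal phospholipase A (chr8:106150399-106164715, plus strand), passed from P6 to P15 and from P6 to 8 weeks. Estimates past 2-fold that did not pass were those of Smpd1 (2.01- and 2.08-fold of P6 at P15 and at 8 weeks), Gla (0.448- and 0.445-fold), Galns (0.432-fold at 8 weeks) and Arsb (0.448-fold of P15 at 8 weeks). glmTreat called no member lower by more than 2-fold, nor did DESeq2 or limma-voom, and the nearest was Galns.

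For Sgsh the lowest, median and highest mouse were 8.47, 13.7 and 17.0 CPM at P6, 18.3, 23.5 and 34.8 CPM at P15, and 41.2, 46.9 and 62.9 CPM at 8 weeks. The 3 ages did not overlap. The log2 fold change of Sgsh was 0.98 ± 0.12 (SE) from P6 to P15, 0.91 ± 0.11 from P15 to 8 weeks and 1.90 ± 0.13 from P6 to 8 weeks, a 3.72-fold difference (edgeR FDR 1.17e-14, glmTreat FDR 2.44e-08). Scaled to pan-microglial genes, the P6 to 8 weeks value was 0.91. In P6 female 6, the library left out, Sgsh was 13.5 CPM.

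Pla2g15 ranged from 106 through a median of 147 to 208 CPM at P6, from 264 through 420 to 656 CPM at P15, and from 423 through 516 to 698 CPM at 8 weeks. All P15 and all 8-week mice lay above all P6 mice, and the later ages overlapped each other. Its log2 fold change was 1.51 ± 0.13 (SE) from P6 to P15 (glmTreat FDR 0.000385), 0.31 ± 0.11 from P15 to 8 weeks (edgeR FDR 0.0263) and 1.81 ± 0.13 from P6 to 8 weeks (glmTreat FDR 1.6e-07). The P15 to 8 weeks call was lost without P15 male 1 (log2 fold change 0.27). Scaled to pan-microglial genes, the P6 to 8 weeks value was 0.83.

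**Figure D3:**
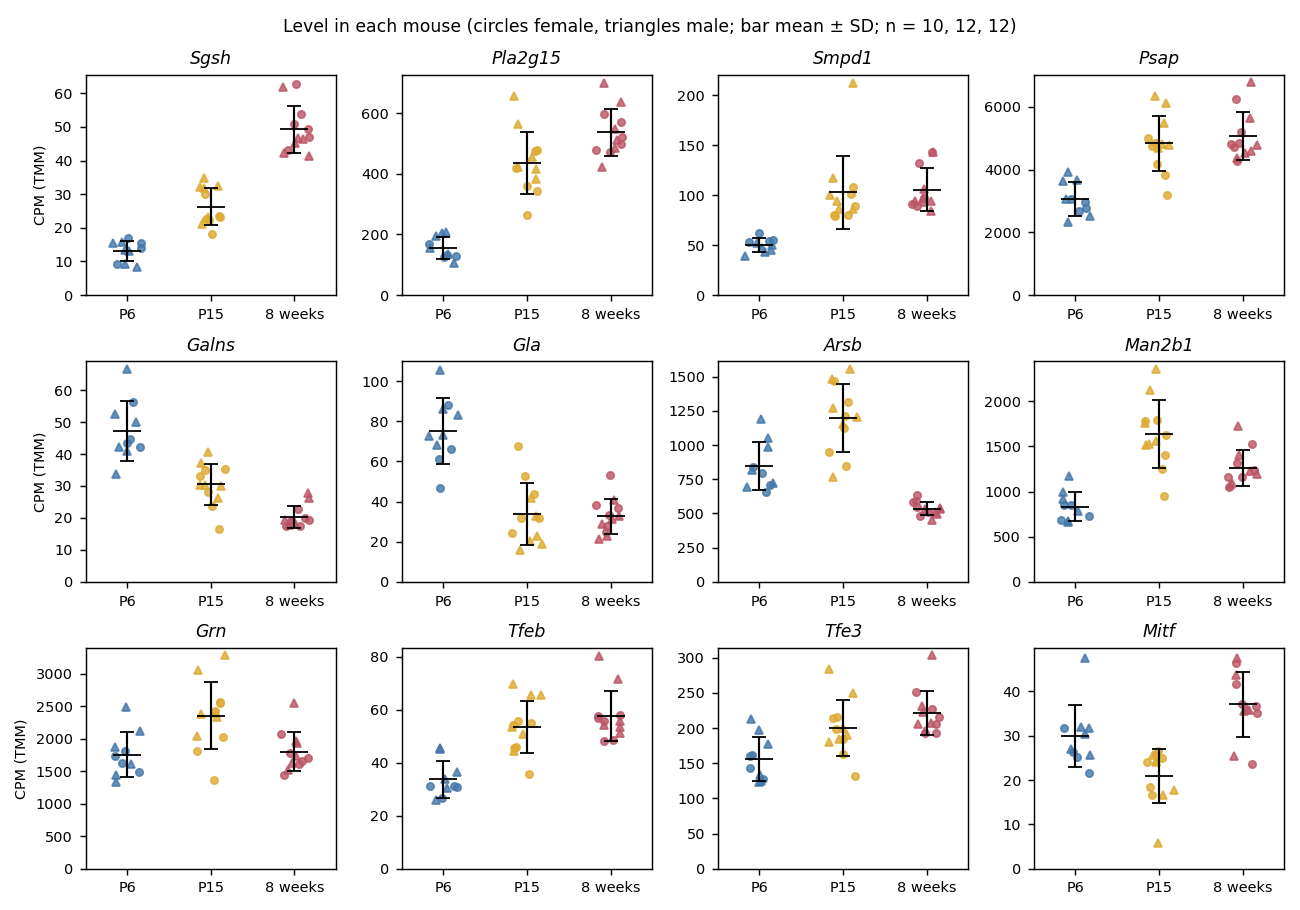
TMM-scaled CPM of 12 members in each of the 34 mice by age (circles females, triangles males), with the mean and SD of 10, 12 and 12 mice as bars. Among these 34 mice Sgsh separates all 3 ages, and Pla2g15 and Smpd1 separate P6 from both later ages. Arsb falls from a mean of 1195 CPM at P15 to 535 CPM at 8 weeks, and Mitf is lowest at P15.

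Of the 43 members, 11 were higher in every 8-week mouse than in every P6 mouse, and 2 were lower in every one. Over all tested genes 14.8% were without overlap in the first direction and 14.8% in the second. The 11 were Idua, Arsa, Sgsh, Smpd1, Psap, Pla2g15, Ppt1, Acp2, Mcoln1, Laptm4a and Tfeb, and the 2 were Arsb and Galns. The fitted change of Sgsh, Pla2g15 and Smpd1 remained above 0 under pan-microglial scaling and that of the other 8 was below 0.

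Among the 12 glycosidases, 8 rose from P6 to 8 weeks (66.7%, against 37.8% of all genes), 2 fell (16.7%, against 36.6%) and 2 were not called. Their median log2 fold change was 0.34, while under pan-microglial scaling all 12 values were below 0. Idua, the iduronidase of heparan and dermatan sulfate breakdown, had the largest rise at 0.91 ± 0.11 (SE, edgeR FDR 7.83e-09) and rose in both steps. Man2b1, the alpha-mannosidase of glycoprotein breakdown, and Naglu, which acts on heparan sulfate, rose by 0.62 and 0.61. Hexa, the alpha subunit of beta-hexosaminidase, rose by 0.53, and Gaa, which digests glycogen, by 0.46. Glb1, the beta-galactosidase, rose by 0.42, and the annotated exons of Tmppe overlap 5.5% of its exon length on the same strand, where reads could be split between them. Neu1, a sialidase, rose by 0.25 and Fuca1, a fucosidase, by 0.24, and both calls were lost without P6 female 2 (0.19 for each) or without P6 female 5 (0.18 and 0.20). The Fuca1 call was also lost without P6 female 3 (0.20) or 8-week male 4 (0.17), and the P6 to P15 rise of Glb1, 0.26, was not called without P6 female 2 (0.23).

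The glycosidases that fell were Gla and Gusb. Gla, the alpha-galactosidase that digests globosides, was at 46.8, 73.0 and 105 CPM (lowest, median and highest) at P6, 16.1, 31.8 and 67.7 CPM at P15, and 21.1, 32.0 and 53.1 CPM at 8 weeks. The P6 range overlapped those of both later ages. Its log2 fold change was -1.16 ± 0.17 (SE) from P6 to P15 and -1.17 ± 0.17 from P6 to 8 weeks (edgeR FDR 9.15e-07 and 4.02e-07), and it was not past 2-fold (glmTreat FDR 0.417 and 0.206). Gusb, the beta-glucuronidase, fell by 0.51 from P6 to P15 and by 0.73 from P6 to 8 weeks on the log2 scale. Its value from P15 to 8 weeks, -0.22, was not called but became -0.27 and was called without P15 male 1 or without 8-week male 4. Manba, the beta-mannosidase, was not called in any comparison, with log2 fold changes of -0.14 from P6 to P15, 0.15 from P15 to 8 weeks and 0.01 from P6 to 8 weeks.

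Galc, the enzyme that digests the galactolipids of myelin, moved in both directions. It was at 48.7, 57.0 and 72.3 CPM at P6, 27.8, 45.3 and 57.6 CPM at P15, and 47.8, 53.2 and 59.9 CPM at 8 weeks. The ranges overlapped at all ages, and the lowest P15 mouse was male 1. It fell by 0.30 from P6 to P15 (edgeR FDR 0.00172) and rose by 0.23 from P15 to 8 weeks (edgeR FDR 0.0155), with -0.08 from P6 to 8 weeks (FDR 0.4). Without P15 male 1 the rise was 0.15 and was still called (edgeR FDR 0.0403). Its rise was 0.03 under pan-microglial scaling.

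Of the 5 sulfatases, 3 rose from P6 to 8 weeks and 2 fell, where 37.8% of all genes rose and 36.6% fell. The median of the 5 sulfatases was 0.41, which became -0.57 under pan-microglial scaling, where Sgsh alone stayed above 0. Arsa, which removes sulfate from the myelin lipid sulfatide, rose by 0.67 from P6 to P15 and by 0.82 ± 0.09 (SE) from P6 to 8 weeks. Ids, the iduronate sulfatase, rose by 0.32 and 0.41.

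Galns, a sulfatase of keratan and chondroitin sulfate, fell in both steps. Its lowest, median and highest mouse were 33.7, 43.97 and 66.5 CPM at P6, 16.6, 30.3 and 40.6 CPM at P15, and 17.3, 19.2 and 27.7 CPM at 8 weeks. Every 8-week mouse lay below every P6 mouse. The log2 fold change was -0.63 ± 0.12 (SE) from P6 to P15, -0.58 ± 0.11 from P15 to 8 weeks and -1.21 ± 0.12 from P6 to 8 weeks (edgeR FDR 1.45e-10). Galns lay just outside the 2-fold threshold in the last comparison (glmTreat FDR 0.05003), and it passed in 13 of the 19 alternatives.

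Arsb, which removes sulfate from dermatan and chondroitin sulfate, rose and then fell. It was at 658, 809 and 1187 CPM at P6, 763, 1206 and 1556 CPM at P15, and 454, 534 and 632 CPM at 8 weeks. The 8-week mice lay below all mice of both earlier ages, which overlapped each other. The log2 fold change was 0.53 ± 0.11 (SE) from P6 to P15 (edgeR FDR 0.000106), -1.16 ± 0.10 from P15 to 8 weeks (edgeR FDR 1.42e-10) and -0.63 ± 0.11 from P6 to 8 weeks. The rise was -0.26 under pan-microglial scaling.

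Of the 6 lipid enzymes and activators, 5 rose from P6 to 8 weeks (83.3%, against 37.8% of all genes) and none fell (against 36.6%). Their median of 0.60 became -0.39 under pan-microglial scaling, where Pla2g15 and Smpd1 stayed above 0. The sixth, Lipa, the lysosomal acid lipase, had log2 fold changes of -0.18, 0.19 and 0.00 from P6 to P15, from P15 to 8 weeks and from P6 to 8 weeks and was not called, although without P15 male 6 the first 2 were -0.24 and 0.23 and were called. Smpd1, the acid sphingomyelinase, rose by 1.01 ± 0.13 (SE) from P6 to P15 and by 1.06 ± 0.13 from P6 to 8 weeks, with no further call from P15 to 8 weeks, and its value under pan-microglial scaling was 0.04. Its highest P15 mouse, at 212 CPM, was male 1, and the other P15 mice were at or below 117 CPM. Without P15 male 1 the value of Smpd1 from P6 to P15 was 0.88. In P6 female 6, the library left out, Smpd1 was 79.4 CPM. That was level with the lowest P15 mouse (79.3 CPM) and above the other P6 mice (39.1 to 62.3 CPM). Asah1, the acid ceramidase, rose by 0.44 from P6 to 8 weeks. Its value from P6 to P15 was 0.27 (edgeR FDR 0.0704), which became 0.36 (FDR 0.00066) without P15 male 1.

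Psap, the precursor of the saposins that present sphingolipids to hydrolases, was at 2318, 3013 and 3929 CPM at P6, 3194, 4795 and 6332 CPM at P15, and 4283, 4801 and 6807 CPM at 8 weeks. Every 8-week mouse lay above every P6 mouse, while P15 overlapped both. It rose by 0.67 ± 0.11 (SE) from P6 to P15 and by 0.75 ± 0.11 from P6 to 8 weeks (edgeR FDR 1.71e-07), and that value was -0.24 under pan-microglial scaling. Gm2a, the ganglioside activator, was at 186, 249 and 312 CPM at P6, 299.7, 411 and 630 CPM at P15, and 282, 322 and 465 CPM at 8 weeks, with overlap between all ages. It rose by 0.72 from P6 to P15 and fell by 0.26 from P15 to 8 weeks (edgeR FDR 0.0327), a call that was lost without P15 male 1 (edgeR FDR 0.057).

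Of the 6 peptidases, thioesterases, phosphatases and nucleases, 3 rose from P6 to 8 weeks, 1 fell and 2 were not called. Among all tested genes 37.8% rose and 36.6% fell. The median of the 6 members was 0.27, while all 6 values were below 0 under pan-microglial scaling. Acp2, the lysosomal acid phosphatase, rose by 0.93 ± 0.10 (SE) and Ppt1, the palmitoyl-protein thioesterase, by 0.79 ± 0.09, the latter in both steps. Acp5, the tartrate-resistant acid phosphatase, was the member with the lowest level per length, at 1.81 RPKM at P6 and 1.11 RPKM at 8 weeks, and it fell by 0.76 ± 0.24. Its highest 8-week mouse, male 4, was at 7.43 CPM beside a median of 1.77, and without it the fall from P15 to 8 weeks was also called, at -0.76 against -0.50 with it. Tpp1, a tripeptidyl peptidase, and Dnase2a, the acid nuclease, had values of 0.20 and 0.14 (edgeR FDR 0.0531 and 0.228). Tpp1 was called without P15 male 1 (0.18), P15 male 6 (0.20) or 8-week male 4 (0.21).

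Lgmn, the asparaginyl endopeptidase legumain, was at 2296, 2996 and 4204 CPM at P6, 2559, 4337 and 6062 CPM at P15, and 3184, 3799 and 5385 CPM at 8 weeks, with overlap between all ages. It rose by 0.52 ± 0.13 (SE) from P6 to P15 and by 0.34 ± 0.13 from P6 to 8 weeks (edgeR FDR 0.0158). The second call was lost without P6 female 2 (edgeR FDR 0.0617), and the value was -0.65 under pan-microglial scaling.

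Of the 11 membrane proteins and luminal cofactors, 8 rose from P6 to 8 weeks (72.7%, against 37.8% of all genes), 1 fell (9.09%, against 36.6%) and 2 were not called. Their median was 0.51, while all 11 values were below 0 under pan-microglial scaling. Tmem106b, a lysosomal transmembrane protein, had the largest rise at 0.85 ± 0.13 (SE) and rose in both steps. Laptm4a rose by 0.56 ± 0.07, Lamp2, which takes part in chaperone-mediated autophagy, by 0.52, Ctns, the cystine exporter, by 0.51 and Cln3 by 0.51. Mcoln1, the calcium-releasing channel of the lysosomal membrane, rose by 0.46 ± 0.06, and Scarb2, the receptor that carries glucocerebrosidase to lysosomes, by 0.41 ± 0.09. Lamp1, the other major lysosome-associated glycoprotein, fell by 0.32 ± 0.09 from P6 to 8 weeks (edgeR FDR 0.00161).

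Laptm5, a membrane protein of haematopoietic lysosomes, was at 1780, 2269 and 3285 CPM at P6, 2172, 3833 and 5722 CPM at P15, and 3201, 3567 and 5101 CPM at 8 weeks. The highest P6 mouse lay above the lowest 8-week mouse. It rose by 0.74 ± 0.13 (SE) from P6 to P15 and by 0.69 ± 0.13 from P6 to 8 weeks, where pan-microglial scaling gave -0.29. Cd68, the macrophage sialomucin that is used as a stain for phagocytic microglia, was at 438, 556 and 752 CPM at P6, 375, 647 and 1032 CPM at P15, and 569, 651 and 892 CPM at 8 weeks. Its log2 fold changes were 0.18 ± 0.12 and 0.26 ± 0.12 from P6 (edgeR FDR 0.185 and 0.052), so that it was not called. The 8-week value was called in 5 alternatives, among them without P15 male 6 (0.25).

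Grn, the gene of progranulin, a luminal cofactor of several hydrolases, was at 1335, 1683 and 2483 CPM at P6, 1373, 2386 and 3296 CPM at P15, and 1446, 1720 and 2557 CPM at 8 weeks, with wide overlap. It rose by 0.43 ± 0.12 (SE) from P6 to P15 (edgeR FDR 0.00233) and fell by 0.38 from P15 to 8 weeks (edgeR FDR 0.00582), with 0.05 from P6 to 8 weeks. The rise was -0.36 under pan-microglial scaling. Man2b1, the glycosidase with the same order of calls, was at 659.8, 819 and 1170 CPM at P6, 946, 1590 and 2355 CPM at P15, and 1053, 1213 and 1720 CPM at 8 weeks. It rose by 0.98 ± 0.12 and then fell by 0.36 (edgeR FDR 0.00806), and its rise remained above 0 under pan-microglial scaling at 0.19.

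Over the 3 ages, 19 members rose from P6 to P15 and were not called afterwards, where 15.6% of all genes did so. Both steps were rises in 5 members (Idua, Sgsh, Pla2g15, Ppt1 and Tmem106b), against 11.2% of all genes, and 7 were called in neither step, against 21.7%. Another 4 rose and then fell (Arsb, Man2b1, Gm2a and Grn), against 3.5% of all genes, and 2 fell and then rose (Galc and Mitf), against 3.35%. A first-step fall with no later call was found in 2 (Gla and Gusb), against 14.7%, and falls in both steps in 1 (Galns), against 13.3%. Of the last 3, Lamp2 and Scarb2 rose and Lamp1 fell in the second step and were not called in the first, where 9.38% of all genes had such a late rise and 7.09% such a late fall. The second-step call of Lamp2, 0.28, was lost without P15 male 1 (0.18) and without P6 female 2, 3 or 5 (0.27 each), and its first step, 0.23, was called without P15 male 1 (0.31). The second-step call of Lamp1, -0.20 (edgeR FDR 0.0422), was lost with all 35 mice, without the filter on low counts and with age without sex. Mcoln1, not called in its second step at 0.11, was called without P15 male 6 (0.15).

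The regulators did not share one course. Tfeb (chr17:47737030-47792419, plus strand) was at 25.9, 31.1 and 45.6 CPM at P6, 35.6, 53.8 and 69.6 CPM at P15, and 48.1, 55.7 and 80.4 CPM at 8 weeks, so that every 8-week mouse lay above every P6 mouse. It rose by 0.69 ± 0.10 (SE) from P6 to P15 and by 0.80 ± 0.10 from P6 to 8 weeks (edgeR FDR 9.43e-07 and 3.34e-08). Tfe3 (chrX:7762560-7775202, plus strand) was at 123, 152 and 213 CPM at P6, 132, 195 and 285 CPM at P15, and 194, 212 and 304 CPM at 8 weeks, with overlap. It rose by 0.37 ± 0.11 and 0.52 ± 0.11 (edgeR FDR 0.00444 and 9.27e-05). The 8-week values of Tfeb and Tfe3 under pan-microglial scaling were -0.18 and -0.46.

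Mitf (chr6:97807052-98021349, plus strand) was at 21.6, 28.7 and 47.4 CPM at P6, 5.84, 24.1 and 26.6 CPM at P15, and 23.7, 36.4 and 47.6 CPM at 8 weeks. P15 was the lowest age, and its lowest mouse was male 1. It fell by 0.48 from P6 to P15 (edgeR FDR 0.012) and rose by 0.83 ± 0.16 (SE) from P15 to 8 weeks (edgeR FDR 7.54e-05), and its rise was 0.65 under pan-microglial scaling. From P6 to 8 weeks the value was 0.35 (edgeR FDR 0.0584), which was called without P15 male 1 (0.33) or 8-week male 4 (0.39). Tfec, the remaining gene of the MiT/TFE family, is no member but was in the list of nutrient-sensing genes. It was at 10.99, 12.9 and 19.3 CPM at P6, 3.04, 7.70 and 10.4 CPM at P15, and 1.64, 2.52 and 3.56 CPM at 8 weeks, and no mouse of a later age reached the P6 range. Tfec fell by 0.88 from P6 to P15 and by 2.43 from P6 to 8 weeks (glmTreat FDR 8.49e-10), and pan-microglial scaling gave -3.40. Per length, Tfe3 had 20.8 RPKM over the 3 ages, Tfeb 8.52 and Mitf 4.73.

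**Figure D4:**
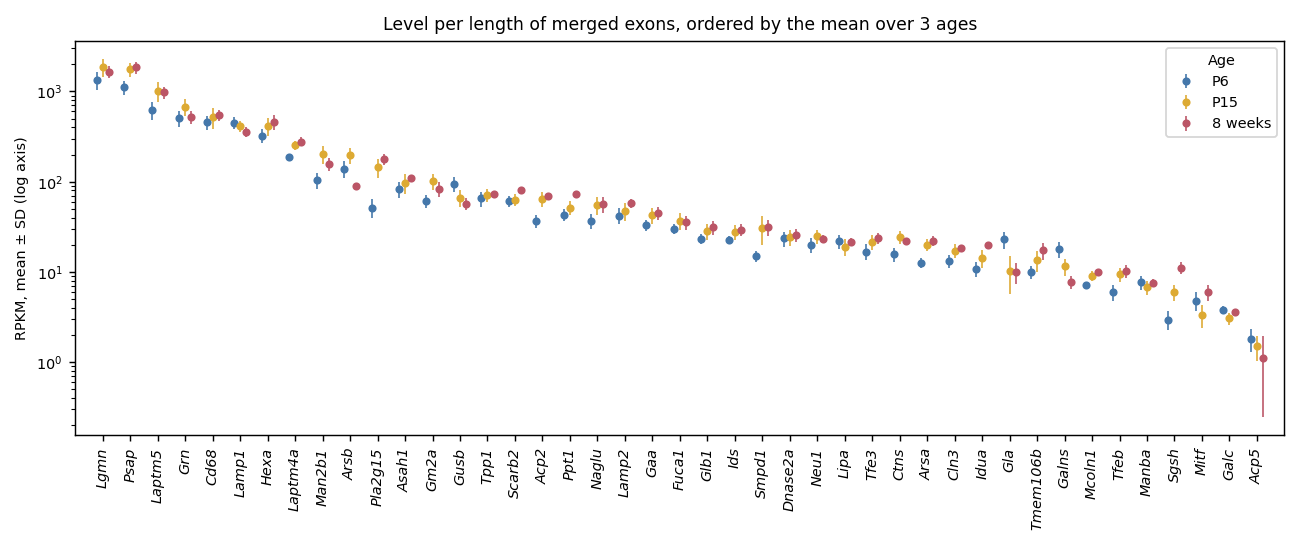
Mean RPKM ± SD of the 43 members at each age on a log axis, ordered by the mean over the 3 ages (n = 10, 12 and 12 mice). Levels span from 1625 RPKM for Lgmn to 1.47 for Acp5, and the shift of Sgsh from 2.97 RPKM at P6 to 11.2 at 8 weeks is small beside the distance between genes.

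The members covered more than 3 decades of level per length. Lgmn had the highest mean over the 3 ages at 1625 RPKM, which ranked 21 among the 17612 tested genes, followed by Psap (1575 RPKM, rank 22), Laptm5 (874, rank 37), Grn (567, rank 55) and Cd68 (508, rank 64). Lgmn had 1335 ± 287 RPKM (SD, n = 10) at P6 and 1659 ± 263 (SD, n = 12) at 8 weeks, and Psap 1115 ± 193 (SD, n = 10) and 1848 ± 284 (SD, n = 12), and Lgmn was the higher of the pair in 10 of 10 P6 mice and 10 of 12 P15 mice, and Psap in 12 of 12 mice at 8 weeks. The 8-week order rested on the exon lengths used, since with the longest transcript Psap was the higher in 5 of those 12 mice and Lgmn in 7. The same 5 members were highest when the longest transcript replaced the merged exons. Sgsh ranked 40 of the 43 members at 6.70 RPKM. Together the members took 1.91% ± 0.34 (SD, n = 10) of TMM-scaled counts at P6, 2.66% ± 0.51 (SD, n = 12) at P15 and 2.52% ± 0.32 (SD, n = 12) at 8 weeks.

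Within an age the members tended to be high or low in the same mice. P6 male 5 had the highest level of its age in 33 of the 43 members and P6 male 4 the lowest in 25. P15 male 6 was highest in 29 and P15 female 2 lowest in 25, and 8-week male 4 was highest in 27. P6 male 5, P15 male 6 and 8-week male 4 also had the lowest TMM factor of their age (0.954, 0.852 and 0.875). P6 male 4 and P15 female 2 had the highest (1.12 and 1.10). A lower factor raises the scaled CPM of every gene in a mouse. The share of all genes that was highest or lowest in these mice was not determined. The 3 mice in which most members were highest were also first of their age in the microglial marker mean and in the pan-microglial mean. P15 male 6 and P6 male 5 were last of their age in the neural progenitor marker mean, and P15 female 2 was first in it and last in the pan-microglial mean. The part of these markers and of the TMM factors in the members' levels within an age was not tested. Some members did not follow this pattern: Gla was highest at P15 in female 3, and Tmem106b and Mitf were highest at P15 in female 2.

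**Figure D5:**
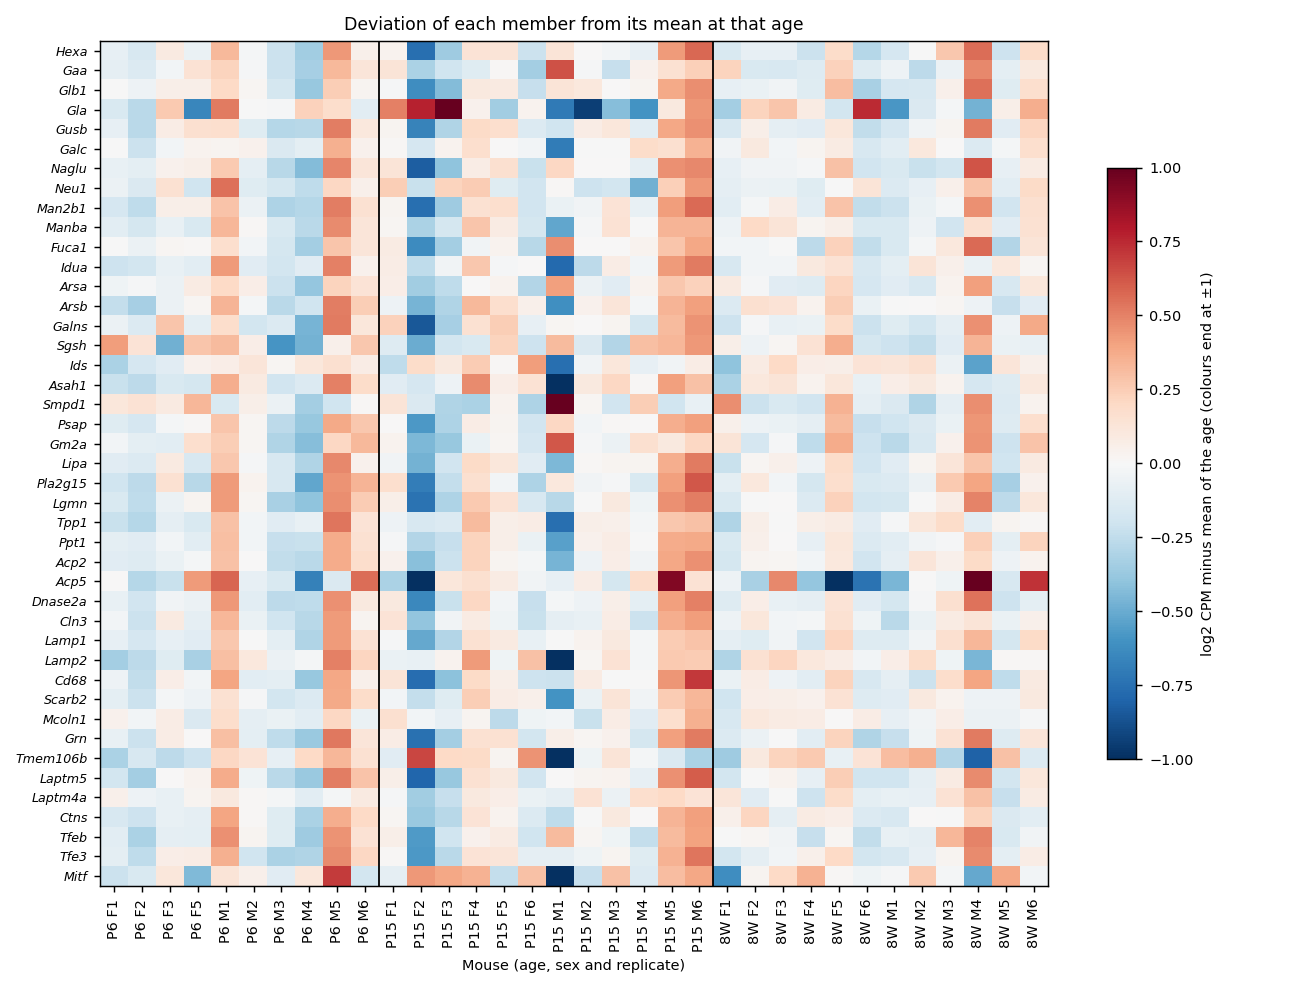
Log2 CPM of each member (rows) in each of 34 mice (columns) minus the member's mean at that age, with red above and blue below the mean and colours ending at ±1. Most of a column shares a colour in many mice, such as P6 male 1 (42 of 43 members above the mean), P6 male 3 (42 below) and P6 male 5 (40 above). Others are P15 female 2 (39 below), P15 male 6 (41 above) and 8-week female 5 (39 above). The column of 8-week male 4 is less uniform (31 above), and P15 male 1 has both strong red (Smpd1, Gm2a) and strong blue (Asah1, Lamp2, Mitf).

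No member was called between the sexes. Over all tested genes, the share called between males and females was 0.0511% in P6 mice, 0.0681% in P15 mice and 0.114% in adults, and the difference between the sexes in the change with age was called in 0.0% of genes in each of the 3 comparisons. DESeq2 and limma-voom also called no member. At an unadjusted p under 0.05, edgeR had 3 members in P6 mice, 13 in P15 mice and 1 in adults, where 7.1%, 18.2% and 2.94% of all genes were under it, and 5, 1 and 0 members for the sex by age terms, where 20.4%, 5.1% and 3.41% of all genes were under it. The smallest of these p-values at P15 was that of Gla, whose log2 level in males minus females was -0.72 (edgeR FDR 0.252).

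Genes around these members were read from lists drawn up by function, with earlier results of these data known. Of 32 other lysosomal hydrolases (the cathepsins and further enzymes), 22 rose and 6 fell from P6 to 8 weeks, with a median log2 fold change of 0.53. Of 34 tested genes of other lysosomal membrane proteins and transporters, 18 rose and 6 fell, with a median of 0.21. The number that fell among these transporters and membrane proteins was larger without P6 female 2 or without 8-week male 4. Of 20 tested subunit genes of the V-ATPase, which acidifies the lysosome, 6 rose and 10 fell, with a median of -0.24, where 37.8% of all genes rose and 36.6% fell. Of 32 genes of sorting and fusion 9 rose and 14 fell (28.1% and 43.8%, median -0.09), and of 23 genes of nutrient sensing by mTORC1 and its partners 5 rose and 12 fell (21.7% and 52.2%, median -0.28). Under pan-microglial scaling the numbers that rose and fell were 4 and 22, 5 and 24, 2 and 17, 0 and 30, and 0 and 23, where 10.1% of all genes were higher and 70.4% lower.

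The largest called changes from P6 to 8 weeks in each list were as follows. Plbd1, a phospholipase B-like protein, rose by 1.93 ± 0.20 (SE) from P6 to 8 weeks, and Hgsnat, which acetylates heparan sulfate in the lysosomal membrane, fell by 0.93. Lamp5 rose by 1.78 from 0.753 ± 0.536 CPM (SD, n = 10) to 2.54 ± 1.65 (SD, n = 12), near the floor at P6, and was at 4.24 CPM in P6 female 6. Mcoln3, the third mucolipin channel gene, was at 1.82 ± 0.57 CPM (SD, n = 10) at P6, and 7 of 12 mice were at 0 at each later age (edgeR FDR 2.32e-11 from P6 to 8 weeks). Atp6v0a2, a membrane subunit of the V-ATPase, rose by 1.36 ± 0.09, while Atp6v0d2, a subunit isoform of osteoclasts and macrophages, went from 11.6 ± 4.2 CPM (SD, n = 10) at P6 to 0.381 ± 0.191 (SD, n = 12) at 8 weeks. Sort1, the sorting receptor sortilin, rose by 1.16 ± 0.08 and Gga2, a sorting adaptor of the trans-Golgi, fell by 1.48. Rptor, the raptor subunit of mTORC1, rose by 0.76 ± 0.10, and Tfec had the largest fall in its list. Under pan-microglial scaling the rise of Rptor turned to -0.23 and those of Plbd1, Lamp5, Atp6v0a2 and Sort1 remained above 0, at 0.92, 0.78, 0.37 and 0.15.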

How the data were processed

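CD45+ cells were immunopanned from papain-digested brains. The authors deposited raw counts per Ensembl gene for 35 mice, made from directional paired-end libraries with STAR and featureCounts of the Subread package on mm10/GRCm38. The study removed 1 mouse as an outlier, and which one is not given in the sources used here. P6 female 6 was left out of the comparisons here, and its inclusion was an alternative. The annotation release is not given in the sources used here. Since reads were counted by strand, antisense partners were separable.

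Genes were tested if 5 or more mice reached 0.5 CPM, and TMM factors were computed (edgeR 4.0.16, R 4.3.3). A quasi-likelihood model with 6 age and sex group means was fitted over 17612 genes, age contrasts averaged the sexes, and p-values were Benjamini-Hochberg adjusted over all genes. Changes over 2-fold were tested with glmTreat. Every test is two-sided. Log2 CPM used a prior count of 2. Exon lengths came from GENCODE M21 and promoters from RefSeq. Total counts were 23316107 to 38965078 per mouse, which bounds counting error only.

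Named with values by mouse were members past 2-fold, the 3 regulators, the 5 highest by RPKM and members called in opposite directions between steps. Of genes outside the set, the largest called rise and fall in each list and Tfec were named. Gla and Galns were given by mouse after their values were seen. The members and lists were chosen with earlier results of these data known. The test was tried on simulated counts with known changes. DESeq2 1.42.0, limma-voom 3.58.1, other scalings, filters, designs and subsets of mice were alternatives, 3 of which were added after seeing the data. No 2 libraries of a group agreed within sampling noise. The labels do not say whether mice shared litters.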

Additional observations from a re-analysis of the deposited data

Results flagged for a closer look

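Dixon's test for a sample far from the others was run on the CPM of each of the 43 members in each of the 6 age and sex groups, 258 groups of values in all. It marked 20, where chance marks about 1 in 20 groups, or 12.9. P15 male 1 and 8-week male 4 were marked 5 times each, P6 female 3 was marked 3 times, P6 male 5 and 8-week female 5 were marked 2 times each, and 3 other mice 1 time each.

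P15 male 1 was far below the other P15 males in Asah1 (121 CPM, next 318), Lamp2 (189, next 433) and Ids (82.6, next 132), and far above them in Smpd1 (212, next 117) and Gm2a (630.0, next 474). The 8-week male 4 was far above in Naglu (228 CPM, next 156), Sgsh (62.0, next 46.7), Tfe3 (304, next 231) and Acp5 (7.43, next 3.13), and far below in Ids (103, next 143). P6 female 3, in a group of 4, was above in Lipa (156 CPM), Pla2g15 (169) and Ppt1 (153), and P6 female 2 was below in Tfeb (26.6). P6 male 5 was above in Galc (72.3 CPM) and Mitf (47.4). The 8-week female 5 was above in Naglu (181 CPM) and Lamp1 (1100), and 8-week female 1 was below in Ids (113). P15 male 5 was above in Acp5 (5.57 CPM).

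P15 male 1 also had the highest oligodendrocyte-lineage marker mean of its age (8.02 log2 CPM) and the lowest microglial marker mean (10.15). The part of these in its values was not tested.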

How the results depend on the processing

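Apart from pan-microglial scaling and the neural marker covariate, 17 alternatives were run (other scalings, filters, tools, designs, all 35 mice and leaving out single mice). Under these, 2132 of 2193 log2 fold changes of members kept their call, 24 lost it and 37 gained it, and none that was called with or without the alternative changed sign. Another 36 values, called in neither, changed sign, and 448 of 464 counts stayed within 1.5 times. The exceptions were mostly the count of members lower by over 2-fold from P6 to 8 weeks, 0 in the report. It was 1 (Galns) with DESeq2 size factors, with at least 10 counts in every mouse, with age without sex, with the compared groups alone and with a replicate block, 2 with library size alone, and 0 to 1 when single mice were left out, where it was 1 without P6 female 2, P6 female 5, P15 male 1, P15 male 6 or 8-week male 4. Library size alone, which moved the median of all genes to -0.14 at P15 and -0.10 at 8 weeks, also gave role medians from P6 to 8 weeks of 0.20 (glycosidases), 0.27 (sulfatases) and 0.14 (peptidases and others), 8 members lower from P6 to P15, 13 lower genes of other lysosomal membrane proteins and transporters (10 without P6 female 2 or without 8-week male 4, with a range of 6 to 10) and 3 higher genes of nutrient sensing. Replicate numbers did not pair the mice: of 32 pairs with the same number and sex, 13 had deviations correlated above 0.1 and the median was 0.0789, so that the replicate block is shown only here. It changed no other count by over 1.5 times.

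With pan-microglial scaling, 2 members were higher and 31 lower from P6 to P15 (0 and 3 by over 2-fold), 2 higher and 36 lower from P6 to 8 weeks (0 and 6), and 4 higher and 15 lower from P15 to 8 weeks (0 and 1). Over all 17612 tested genes the scaling gave 1585 higher and 6180 lower from P15 to 8 weeks. With the neural covariate the members' numbers in the same order were 15 and 12 (0 higher by over 2-fold), 5 and 19 (1 and 3) and 1 and 26 (0 and 1). All tested genes then split into 4820 higher and 4604 lower, 4489 and 4170, and 3514 and 3491. The share of called members that were higher, 82.9% from P6 to 8 weeks under TMM, was 5.26% with the scaling and 20.8% with the covariate. In the lists, higher and lower counts from P6 to 8 weeks were 4 and 22 of other hydrolases, 5 and 24 of other membrane proteins and transporters, 2 and 17 of the V-ATPase, 0 and 30 of sorting and fusion and 0 and 23 of nutrient sensing with the scaling. With the covariate they were 6 and 13 for hydrolases and 11 and 15 for membrane proteins, and 3 V-ATPase, 3 sorting and 3 nutrient-sensing genes were higher. The cause was not tested.

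Values called with or without the setting that turned below 0 are given here. With pan-microglial scaling they were, from P6 to P15, Hexa -0.45, Gaa -0.38, Glb1 -0.53, Naglu -0.21, Neu1 -0.45, Fuca1 -0.50, Idua -0.37, Arsa -0.10, Arsb -0.26, Ids -0.46, Asah1 -0.53, Psap -0.11, Gm2a -0.04, Lgmn -0.28, Tpp1 -0.62, Ppt1 -0.50, Dnase2a -0.73, Cln3 -0.39, Lamp2 -0.56, Cd68 -0.63, Scarb2 -0.72, Mcoln1 -0.43, Grn -0.36, Tmem106b -0.28, Laptm5 -0.06, Laptm4a -0.36, Ctns -0.15, Tfeb -0.09 and Tfe3 -0.42. From P6 to 8 weeks they were Hexa -0.47, Gaa -0.53, Glb1 -0.58, Naglu -0.38, Neu1 -0.74, Man2b1 -0.37, Manba -0.97, Fuca1 -0.76, Idua -0.06, Arsa -0.18, Ids -0.57, Asah1 -0.53, Psap -0.24, Gm2a -0.54, Lipa -0.98, Lgmn -0.65, Tpp1 -0.77, Ppt1 -0.20, Acp2 -0.05, Dnase2a -0.84, Cln3 -0.47, Lamp2 -0.45, Cd68 -0.73, Scarb2 -0.57, Mcoln1 -0.53, Grn -0.94, Tmem106b -0.11, Laptm5 -0.29, Laptm4a -0.45, Ctns -0.47, Tfeb -0.18, Tfe3 -0.46 and Mitf -0.62. From P15 to 8 weeks they were Naglu -0.16 and Psap -0.13. Another 18 values from P15 to 8 weeks, called in neither, also turned. The role medians from P6 to 8 weeks turned to -0.66 (glycosidases), -0.57 (sulfatases), -0.39 (lipid enzymes), -0.71 (peptidases and others), -0.47 (membrane proteins) and -0.46 (regulators).

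With the neural covariate the called values that turned were, from P6 to P15, Hexa -0.05, Glb1 -0.07, Idua -0.01, Ppt1 -0.09, Dnase2a -0.34, Cd68 -0.27, Scarb2 -0.27 and Tfe3 -0.06. From P6 to 8 weeks they were Hexa -0.41, Glb1 -0.37, Naglu -0.35, Neu1 -0.40, Man2b1 -0.42, Manba -0.87, Fuca1 -0.29, Idua -0.09, Asah1 -0.55, Lipa -0.97, Lgmn -0.78, Tpp1 -0.61, Ppt1 -0.09, Dnase2a -0.81, Cln3 -0.24, Lamp2 -0.29, Cd68 -0.79, Scarb2 -0.37, Grn -0.96, Laptm5 -0.39, Ctns -0.28 and Tfe3 -0.49. From P15 to 8 weeks they were Hexa -0.37, Glb1 -0.30, Galc -0.10, Naglu -0.53, Manba -0.36, Idua -0.08, Asah1 -0.39, Psap -0.35, Lipa -0.37, Pla2g15 -0.23, Tpp1 -0.43, Ppt1 -0.00, Acp2 -0.42, Dnase2a -0.46, Cln3 -0.32, Lamp2 -0.17, Cd68 -0.52, Scarb2 -0.11 and Tfe3 -0.43. Another 3, 1 and 6 values, called in neither, also turned from P6 to P15, from P6 to 8 weeks and from P15 to 8 weeks. The role medians turned to -0.40 (glycosidases), -0.70 (peptidases and others), -0.29 (membrane proteins) and -0.49 (regulators). DESeq2 size factors, library size alone and all 35 mice left 300 of 301 mean levels within 1 SD. Counting depth did not limit the members other than Acp5.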
